A study of Mus musculus with 8 samples.

Results

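Transcripts of 8 podocyte and glomerular genes were followed through 8 mouse whole-kidney RNA-seq libraries. The genes were taken as a listed set, Nphs1, Cd2ap, Podxl, Synpo, Ptpro, Wt1, Lamb2 and Magi2, and each was found by its Ensembl identifier among the 37583 genes of every count file. All 8 had enough reads to be tested. The study compared 4 kidney libraries titled knockout, from mice with genotype Six2Cre+TFAP2Afl/flTFAP2Bfl/WT, with 4 titled wildtype, which are given as WT and came from control littermates. The knockout genotype carries a Cre recombinase driven by Six2, 2 floxed alleles of Tfap2a and 1 floxed and 1 wildtype allele of Tfap2b. Six2 marks the progenitors of the nephron epithelium, from which podocytes descend, whereas the endothelium, the mesangium and the collecting duct come from other lineages. No age, sex, litter or batch is given. Whether the 8 libraries stand for 8 separate mice is not stated either, so the p-values describe spread among libraries, some of which may be technical.

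Podocytes are the epithelial cells that cover the outside of the glomerular capillaries. Their interlocking foot processes are joined by the slit diaphragm, a protein sheet that, together with the glomerular basement membrane and the endothelium, holds back blood proteins while water and small solutes pass. Inherited loss of slit diaphragm, cytoskeletal or basement membrane components of podocytes causes nephrotic syndrome, and WT1 is the transcription factor that keeps many of these genes active. In whole kidney the podocyte is a minor cell type, and some of the genes listed here are also expressed elsewhere: Cd2ap in many epithelia, Podxl in endothelium, Lamb2 in vessel walls, and Wt1 in the mesothelium.

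Library depth was 13871861 to 16629301 gene-assigned reads, and 14433 genes passed the filter on low counts. The targeted genes did not separate the labels: Tfap2a was at 5.05 ± 0.990 (SD, n = 4) CPM (counts per 1000000 reads of the scaled library size) in the knockout-labelled libraries and 4.22 ± 1.08 (SD, n = 4) in the others, and Tfap2b at 80.0 ± 20.3 and 78.3 ± 20.5 CPM. Neither was lower under the knockout label, so every direction below is that of libraries labelled knockout. A gene-level count also includes exons outside any deleted part. Adrenal cortex markers marked knockout 2 and wildtype 1, where Star reached 350 and 335 CPM against at most 6.15 CPM elsewhere. The heat-shock genes were highest in knockout 2 and knockout 4, with Hspa1b at 175 and 363 CPM. The differences of all 8 genes are given below without each of these pairs of libraries as well.

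The study targets genes of AP-2 transcription factors, and WT1 is itself among the 8 genes, so the sequences before the annotated RefSeq start sites were searched for the letters of both. RefSeq promoter windows (GRCm38.p6) were present for 5 of the 8 genes, in 6 windows, since Magi2 has 2 start sites. In the 250 bases before the start, the AP-2 motif GCCNNNGGC, read on both strands, was present in 2 of 6 windows (1 of Magi2 and that of Cd2ap) against 13.7% of all 32851 RefSeq windows of this length. The WT1 motif GNGTGGGNG was present in 3 windows (Nphs1, Cd2ap and 1 of Magi2) against 12.7% of all windows. Of the 250 bases, 250 in the Nphs1 window and 241 in the Cd2ap window lie within annotated GENCODE exons, as do all matches of both motifs there, so those windows are mostly transcribed sequence. The Magi2 window that holds both motifs is shown up to its first annotated exon, with the AP-2 match and then the WT1 match (on the reverse strand) in capitals, at chr5:19226796-19227035 on the plus strand. The Ptpro window, at chr6:137252049-137252298 on the plus strand, is shown for contrast, because neither motif is in it.
Magi2: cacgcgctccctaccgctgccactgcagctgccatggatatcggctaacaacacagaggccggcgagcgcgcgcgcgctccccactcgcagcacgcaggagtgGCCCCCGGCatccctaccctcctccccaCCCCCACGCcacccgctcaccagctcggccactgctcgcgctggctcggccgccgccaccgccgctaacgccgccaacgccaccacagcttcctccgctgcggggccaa
Ptpro: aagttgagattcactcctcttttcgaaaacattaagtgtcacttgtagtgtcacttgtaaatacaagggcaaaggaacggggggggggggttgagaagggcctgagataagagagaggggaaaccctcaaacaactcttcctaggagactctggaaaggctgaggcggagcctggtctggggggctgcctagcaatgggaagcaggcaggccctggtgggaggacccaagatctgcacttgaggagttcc
The matches start at positions 104 and 132 of the Magi2 window, counted from 1 at its 5′ end, and do not overlap. E-box letters, CANNTG, the core bound by basic helix-loop-helix factors such as TCF21, were found in 5 of 6 windows against 66.2% of all, and the LMX1B letters TAATTA in 1 of 6 (the second Magi2 window) against 4.84%. A match is only a run of letters, and its absence says nothing about a factor.

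Per kilobase of exon, Podxl was the most abundant transcript and Wt1 the least. Podxl, which encodes podocalyxin, the charged sialoprotein that coats foot processes, was at a level of 15.3 ± 2.73 CPM per kb (SD, n = 8 libraries). Lamb2, the laminin beta 2 chain of the mature glomerular basement membrane, was at 9.80 ± 2.16 CPM per kb, and Cd2ap, an adaptor that links the slit diaphragm to actin, at 7.37 ± 0.715 CPM per kb. Each of the pairs Podxl and Lamb2, and Lamb2 and Cd2ap, stood in this order in 7 of 8 libraries, so neither order held throughout. Synpo, which encodes the actin-associated foot process protein synaptopodin, followed at 2.16 ± 0.578 CPM per kb, below Cd2ap in 8 of 8 libraries. Magi2, a scaffold of the slit diaphragm, was at 0.732 ± 0.132 CPM per kb, Ptpro, the receptor tyrosine phosphatase GLEPP1 of the foot process surface, at 0.718 ± 0.225, and Nphs1, which encodes nephrin, the adhesion protein that spans the slit, at 0.647 ± 0.288. Levels of these 3 did not differ beyond their spread: Magi2 exceeded Ptpro in 4 of 8 libraries and Ptpro exceeded Nphs1 in 5. Wt1 was at 0.362 ± 0.140 CPM per kb and below Nphs1 in 8 of 8. The lengths join all annotated exons of a gene (GENCODE M21), so a gene expressed from a short isoform is set too low.

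These genes differed widely in how much they varied. Nphs1 ranged 4.34-fold between its lowest and highest library and Wt1 3.55-fold, whereas Cd2ap ranged 1.32-fold. The coefficient of variation over 8 libraries was 44.5% for Nphs1, 38.8% for Wt1, 31.3% for Ptpro, 26.8% for Synpo and 22.0% for Lamb2, and 9.69% to 18.0% for Cd2ap, Podxl and Magi2. For Nphs1, with 28 to 119 reads per library, the counting error was 12.4%. For Wt1, with 13 to 47 reads per library, the counting error alone was 17.1%, and for Magi2, with 105 to 176 reads, it was 8.91%. Variance within groups was 3.04 times the counting variance for Wt1 and 3.39 times for Magi2, and 8.14 to 40.8 times for the other 6 genes. Wt1 and Magi2 were therefore measured least precisely relative to their spread.

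The slit diaphragm genes did not separate the labels. Nphs1 (ENSMUSG00000006649, chromosome 7, 30458315 to 30487223 on GRCm38) was at 5.01, 4.98, 3.56 and 5.55 CPM in knockout 1 to 4 and at 2.45, 3.26, 1.77 and 7.69 CPM in wildtype 1 to 4. Wildtype 1 to 3 lay below every knockout library, and wildtype 4 lay above all of them, so the groups overlapped. Knockout minus wildtype, on the log2 scale, was 0.33 (SE 0.40, with a 95% interval from -0.55 to 1.22; edgeR quasi-likelihood, Benjamini-Hochberg adjusted p = 0.957). Nphs1 shares exon bases with the antisense gene Nphs1os, which had 0 counts in all libraries, and counting was without strand. Magi2 (ENSMUSG00000040003, chromosome 5, 19227036 to 20704792) was at 8.44, 8.23, 7.79 and 11.8 CPM in knockout 1 to 4 and at 7.14, 7.32, 7.27 and 8.46 CPM in wildtype 1 to 4. Here too wildtype 1 to 3 were below every knockout library and wildtype 4 was not, and knockout 4 stood above the rest. It differed by a log2 value of 0.26 (SE 0.16, with a 95% interval from -0.10 to 0.62; edgeR adjusted p = 0.957). Cd2ap (ENSMUSG00000061665, chromosome 17, 42792951 to 42876665) was at 121, 106, 99.7 and 129.9 CPM in knockout 1 to 4 and at 116, 109, 123 and 131 CPM in wildtype 1 to 4. It was the 1 gene of the 8 with a negative log2 difference, -0.07 (SE 0.11, with a 95% interval from -0.31 to 0.17; edgeR adjusted p = 0.962).

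Among foot process genes, Podxl (ENSMUSG00000025608, chromosome 6, 31519488 to 31563981) was at 92.2, 77.6, 103 and 96.5 CPM in knockout 1 to 4 and at 55.3, 87.8, 73.8 and 87.3 CPM in wildtype 1 to 4. Knockout 1, 3 and 4 exceeded every wildtype library, and knockout 2 did not. Knockout minus wildtype came to 0.28 on the log2 scale (SE 0.15, with a 95% interval from -0.06 to 0.61; edgeR adjusted p = 0.957). Synpo (ENSMUSG00000043079, chromosome 18, 60593973 to 60660142) was at 22.3, 23.0, 18.6 and 24.2 CPM in knockout 1 to 4 and at 13.4, 20.0, 13.3 and 29.6 CPM in wildtype 1 to 4. As for Nphs1, wildtype 3 was the lowest and wildtype 4 the highest library. On the log2 scale it differed by 0.21 (SE 0.24, with a 95% interval from -0.32 to 0.74; edgeR adjusted p = 0.957). Ptpro (ENSMUSG00000030223, chromosome 6, 137252319 to 137463233) was at 5.84, 3.64, 6.38 and 4.34 CPM in knockout 1 to 4 and at 2.86, 3.76, 4.55 and 7.23 CPM in wildtype 1 to 4, with interleaved groups. Its groups differed by a log2 value of 0.13 (SE 0.29, with a 95% interval from -0.52 to 0.78; edgeR adjusted p = 0.968).

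Wt1 (ENSMUSG00000016458, chromosome 2, 105126529 to 105173616), the podocyte transcription factor, had the largest difference of the 8. It was at 2.92, 2.74, 2.45 and 3.14 CPM in knockout 1 to 4 and at 0.885, 1.44, 1.39 and 2.97 CPM in wildtype 1 to 4. Wildtype 1 to 3 lay well below the knockout libraries and wildtype 4 lay among them. In log2 units the groups differed by 0.75 (SE 0.33, with a 95% interval from 0.01 to 1.48), with an unadjusted p of 0.0468 that did not survive adjustment (edgeR adjusted p = 0.957). An exact two-sided permutation test of the 8 libraries gave p = 0.114. Lamb2 (ENSMUSG00000052911, chromosome 9, 108479736 to 108490530), the basement membrane laminin, was at 50.6, 82.6, 51.4 and 75.7 CPM in knockout 1 to 4 and at 62.1, 54.1, 45.1 and 55.0 CPM in wildtype 1 to 4. Its 2 highest values were in knockout 2 and knockout 4, the libraries with the most heat-shock transcripts, and knockout 1 and 3 lay within the wildtype range. Its groups differed by a log2 value of 0.27 (SE 0.17, with a 95% interval from -0.12 to 0.65; edgeR adjusted p = 0.957), and it was -0.08 without those 2 libraries (edgeR adjusted p = 0.888).

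**Figure D1:**
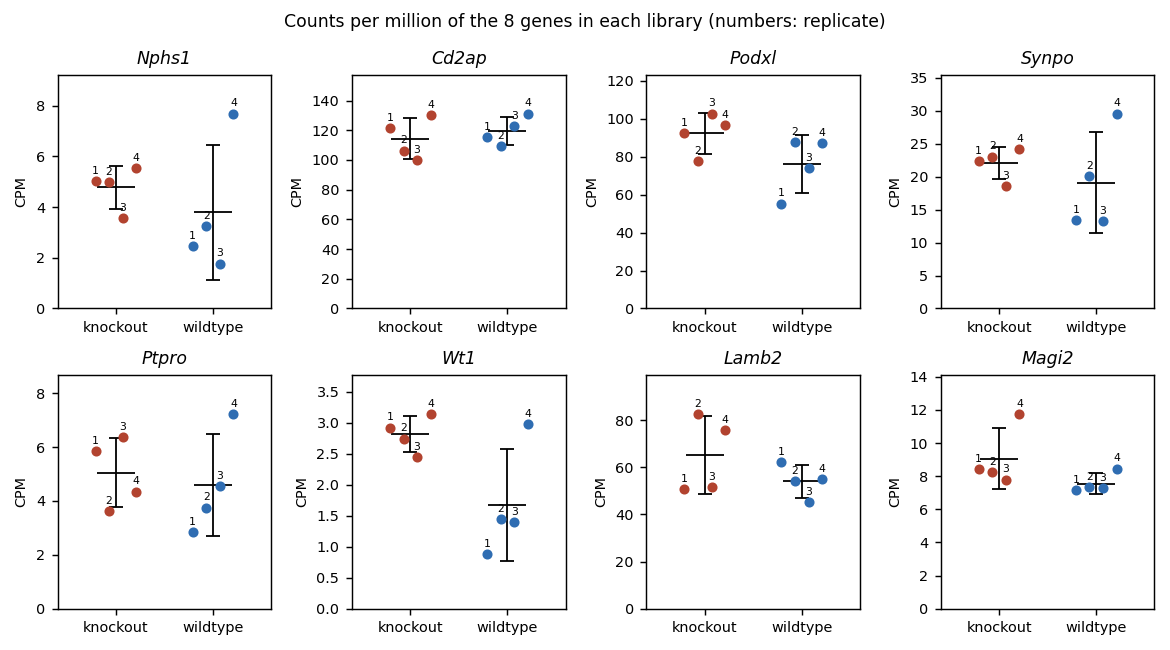
Level in CPM (vertical axis, starting at 0) of each gene in the 4 libraries labelled knockout (red) and the 4 labelled wildtype (blue); small numbers give the replicate, and bars give the mean and SD of each group. For Nphs1, Wt1 and Magi2, wildtype 1 to 3 lie below every knockout library and wildtype 4 does not.

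Of the 8 genes, 0 passed edgeR's quasi-likelihood test over all 14433 genes, against a background of 0% called. At an unadjusted p under 0.05 there was 1 of 8, Wt1, against 4.00% of all genes in either direction and 2.17% higher in knockout. The log2 difference was above 0 for 7 of 8, against 51.3% of all genes, with a median of 0.27 against 0.01 over all tested genes. For 0 of 8 were the groups free of overlap, against 1.97% of all genes in either direction and 1.03% higher in knockout. Nphs1, Wt1 and Magi2 had at least 3 of 4 wildtype libraries below every knockout library, a pattern found in 6.53% of all genes. The pattern was taken from the values of these genes themselves and carries no test. These 3 genes also ranked the libraries almost alike, so they do not count as 3 separate results. In whole-kidney RNA, a change in the number of podocytes and a change in RNA per podocyte cannot be told apart.

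Leaving out single libraries moved the difference of every one of the 8 genes by over 1.5 times. Without wildtype 4 the log2 difference was 0.94 for Nphs1 (unadjusted p = 0.00601), 0.50 for Synpo (unadjusted p = 0.0188) and 1.18 for Wt1 (unadjusted p = 0.00155), and edgeR's adjusted p was 1.00 for each. Nphs1 and Synpo moved the other way without wildtype 1, to 0.18 and 0.08, and without wildtype 3, to 0.10 and 0.07. At an unadjusted edgeR p under 0.05 were 3 of the 8 genes without wildtype 4, beside 403 of all 14600 genes tested in that fit. Leaving out any other single library gave 0 of 8. Podxl was at 0.16 without wildtype 1, its lowest library, Magi2 at 0.11 without knockout 4, its highest, and Lamb2 at 0.13 without knockout 2, its highest. Ptpro changed sign with the library left out: it was at 0.44 without wildtype 4, -0.04 without wildtype 1, 0.04 without wildtype 2, and 0.05, 0.26, 0.00 and 0.20 without knockout 1 to 4. Cd2ap stayed below 0, at -0.03, -0.01 and -0.13 without knockout 2 to 4, and at -0.11 and -0.02 without wildtype 2 and wildtype 4.

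Without both libraries that carry adrenal transcripts, the log2 differences were 0.16 for Nphs1, 0.29 for Magi2, -0.04 for Cd2ap, 0.23 for Podxl, 0.06 for Synpo, 0.10 for Ptpro, 0.56 for Wt1 and 0.21 for Lamb2. Without both libraries high in heat-shock transcripts, they were 0.18 for Nphs1, 0.10 for Magi2, -0.12 for Cd2ap, 0.36 for Podxl, 0.10 for Synpo, 0.41 for Ptpro, 0.68 for Wt1 and -0.08 for Lamb2. Lamb2 in the second set was the 1 gene whose sign turned, and 0 of 8 passed in either.

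**Figure D2:**
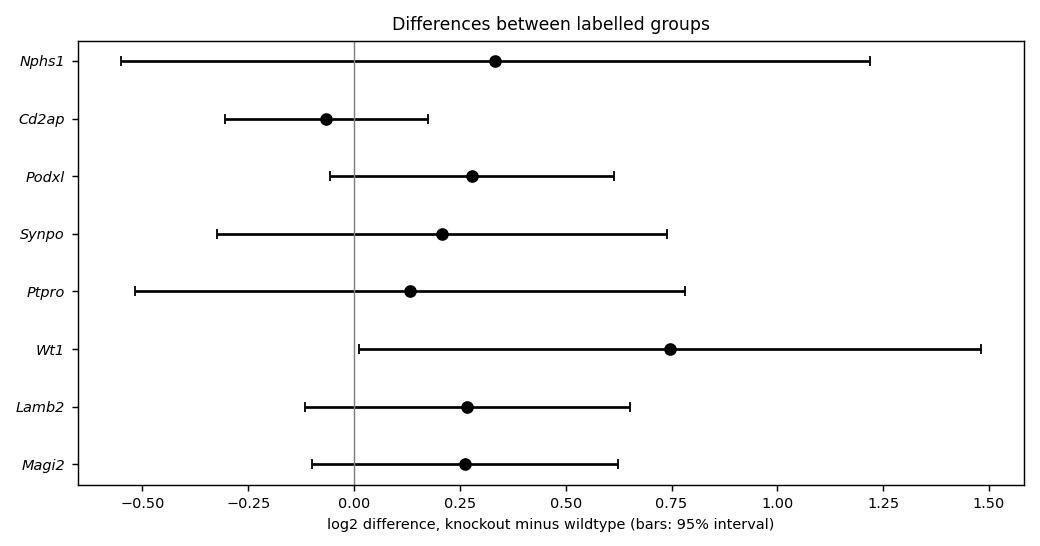
Log2 difference between knockout and wildtype libraries for each of the 8 genes (points) with its 95% interval (bars); the vertical line marks no difference. The interval for Wt1, from 0.01 to 1.48, is the 1 that does not include 0, and no gene passed after adjustment over all tested genes.

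The genes were then compared with each other over the libraries. Of 28 pairs, 24 had a positive Pearson correlation of log2 CPM, with a median r of 0.51 against 0.00 over all pairs of tested genes; r was at least 0.5 in 53.6% of member pairs and in 15.2% of all gene pairs. The pairs share libraries and genes, so they are not independent. Nphs1, Synpo, Wt1 and Magi2 ranked the libraries almost alike. Their 6 mutual pairs were the 6 that passed by Spearman's rho, with exact permutation p-values adjusted over the 28 pairs by the Benjamini-Hochberg method, and the other 22 did not pass. The share of all gene pairs with so high a rho was not measured. Genes outside the podocyte lists also matched these genes closely by r, as given below. By Pearson's r, 1 pair passed.

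That pair was Nphs1 and Synpo. Nephrin and synaptopodin transcripts had r = 0.97 (exact permutation p = 0.000198, adjusted p = 0.00556) and rho = 0.95 (exact permutation p = 0.00114, adjusted p = 0.00799) over 8 libraries. Leaving out wildtype 3 and wildtype 4, the 2 libraries farthest from the Nphs1 median, gave r = 0.94, and centring each gene on its group means gave r = 0.97. Among the 14432 other tested genes, Synpo ranked first by r with Nphs1, and Nphs1 ranked first by r with Synpo. The ratio of Synpo to Nphs1 in CPM varied 1.95-fold over the libraries, from 3.85 in wildtype 4 to 7.50 in wildtype 3, while Nphs1 itself varied 4.34-fold.

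Wt1 followed the same order. Its r was 0.84 with Nphs1 (exact permutation p = 0.00866, adjusted p = 0.0808) and 0.85 with Synpo (exact permutation p = 0.00694, adjusted p = 0.0808), and its rho was 0.95 (exact permutation adjusted p = 0.00799) and 0.90 (exact permutation adjusted p = 0.0213). Without the libraries farthest from the median of the first gene, r was 0.94 for Nphs1 with Wt1 and 0.57 for Synpo with Wt1. Among all tested genes, Synpo ranked 31 and Nphs1 ranked 37 by r with Wt1. Magi2 ranked the 8 libraries exactly as Wt1 did (rho = 1.00, exact permutation p = 4.96e-05, the smallest that 40320 arrangements can give, adjusted p = 0.00139), although r was 0.70 (exact permutation p = 0.0378, adjusted p = 0.186) and 0.64 without wildtype 1 and wildtype 3. Its rho was 0.95 with Nphs1 and 0.90 with Synpo, and its r was 0.64 (exact permutation adjusted p = 0.274) and 0.61 (exact permutation adjusted p = 0.302), or 0.78 and 0.41 without the 2 libraries farthest from the median of the first gene. After centring on group means, r with Magi2 was 0.53 for Nphs1, 0.52 for Synpo and 0.52 for Wt1. Magi2 was at 7.14, 7.32 and 7.27 CPM in wildtype 1 to 3, which differ by less than its counting error of 8.91%. The order of these libraries for Magi2 is therefore not secure.

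**Figure D3:**
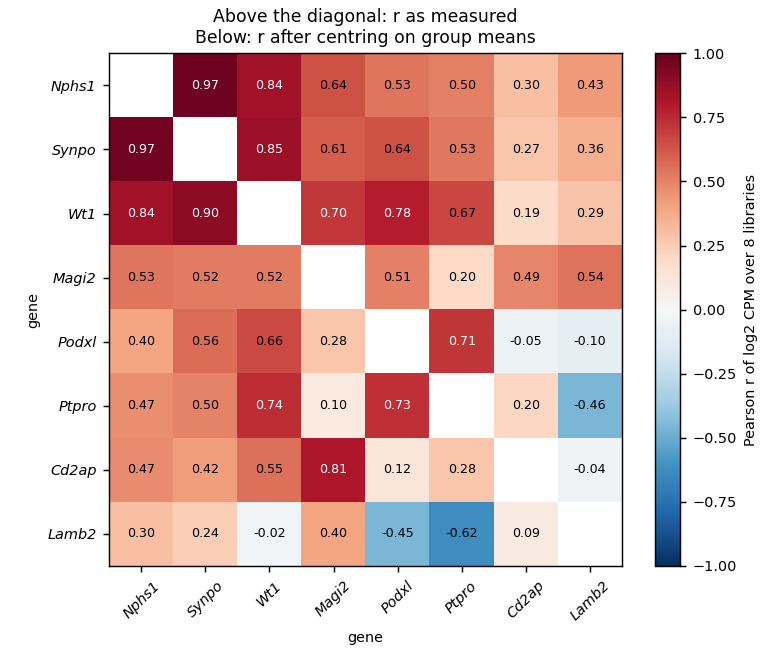
Pearson r of log2 CPM over 8 libraries for each pair of genes, as measured (above the diagonal) and after each gene was centred on its group means (below); red is positive and blue negative. Nphs1, Synpo and Wt1 form a block of 0.84 to 0.97, and Lamb2 with Ptpro is the lowest pair, at -0.46 as measured and -0.62 after centring.

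Podxl, Ptpro, Cd2ap and Lamb2 did not follow that order closely. Podxl had r = 0.78 with Wt1 (exact permutation p = 0.0156, adjusted p = 0.109), but this rested on wildtype 1 and wildtype 3, since r was 0.08 without them. Its r with Ptpro was 0.71 (exact permutation p = 0.0399, adjusted p = 0.186; rho = 0.52, exact permutation p = 0.197), and 0.30 without both adrenal-marked libraries. Podxl and Ptpro each had their lowest value within each group in the library with adrenal transcripts, at 77.6 and 55.3 CPM for Podxl and 3.64 and 2.86 CPM for Ptpro in knockout 2 and wildtype 1. Lamb2 had its highest value within each group in those same libraries, at 82.6 and 62.1 CPM. The part of adrenal tissue in these values was not tested. Cd2ap had a median r of 0.20 with the other 7 genes and Lamb2 of 0.29, against 0.50 to 0.70 for the other 6. Lamb2 and Ptpro had the lowest r of all pairs, -0.46 (exact permutation p = 0.258, adjusted p = 0.424; rho = -0.52, exact permutation p = 0.197; r = -0.55 without wildtype 1 and wildtype 4).

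Most extreme values lay in 4 libraries. Wildtype 4 held the highest value of 4 genes (Nphs1, Cd2ap, Synpo and Ptpro), and knockout 4 was among the top 2 libraries for 7 of 8. Wildtype 1 held the lowest value of 4 genes (Podxl, Ptpro, Wt1 and Magi2) and wildtype 3 of 3 (Nphs1, Synpo and Lamb2), and each was among the bottom 2 for 6 of 8. The spread within wildtype was 70.4% for Nphs1, 54.0% for Wt1 and 40.3% for Synpo as a coefficient of variation, against 17.8%, 10.4% and 11.1% within knockout. Podxl (20.1% against 11.6%) and Ptpro (41.0% against 25.3%) were also wider within wildtype. The order was reversed for Cd2ap (7.91% within wildtype against 12.1% within knockout), Lamb2 (12.9% against 25.3%) and Magi2 (8.11% against 20.2%). The difference in spread was not tested.

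**Figure D4:**
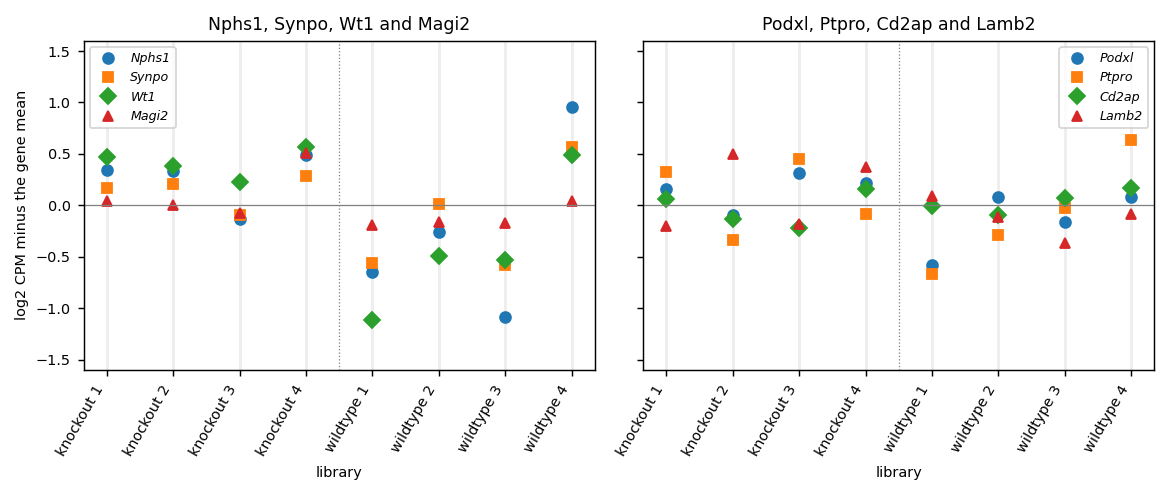
Log2 CPM of each gene minus its mean over the 8 libraries (vertical axis) for each library (horizontal axis; the dotted line separates the labels). Nphs1, Synpo and Wt1 (left) are low together in wildtype 1 and 3 and high together in knockout 4 and wildtype 4, while Lamb2 (right) is highest in knockout 2 and 4.

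Other podocyte genes were read from lists of textbook components. Of 9 slit diaphragm companions, 7 were tested, 4 were above 0 and 0 passed, with a median log2 difference of 0.08; Trpc6 and Kirrel2 were under the filter. Fat1, a giant cadherin, and Tjp1, the junction protein ZO-1, had log2 values of -0.16 (SE 0.19) and -0.08 (SE 0.10), and Nck1, an adaptor that binds phosphorylated nephrin, had 0.23 (SE 0.11). Nck2, the close relative of Nck1, had 0.13 (SE 0.14).

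Cytoskeletal and surface genes of the foot process gave 8 of 12 differences above 0, and 0 of 12 passed. Actn4, an actin crosslinker, differed by 0.03 (SE 0.15), Ezr, which encodes ezrin, a linker of podocalyxin to actin, by -0.15 (SE 0.13), and Inf2, a formin, by 0.23 (SE 0.15). Mean levels were 299 CPM for Actn4 and 396 CPM for Ezr, against 20.6 CPM for Synpo. How much of this RNA came from podocytes was not measured. Slc9a3r2, whose PDZ protein binds podocalyxin, had a log2 difference of 0.31 (SE 0.10; edgeR adjusted p = 0.957). Among transcription factors 3 of 5 were tested, 2 were above 0 and 0 passed, with Tcf21 at -0.06 (SE 0.22), Foxc1 at 0.14 (SE 0.17) and Foxc2 at 0.34 (SE 0.28). Lmx1b was under the filter and Zhx2 had 0 counts in all libraries, which allows up to 0.223 CPM in the smallest. Of 8 secreted and other podocyte genes 5 were above 0 and 0 passed. The vascular growth factor gene Vegfa, which tubules also express, differed by 0.10 (SE 0.11), Npnt, the matrix protein nephronectin, by 0.16 (SE 0.26), Sema3g, a semaphorin, by 0.44 (SE 0.25) and Cdkn1c, the cell cycle inhibitor p57, by 0.54 (SE 0.31).

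The basement membrane partners of Lamb2 were measured beside it. Of 11 genes 7 were above 0 and 0 passed, with a median log2 difference of 0.03. Col4a3 and Col4a4, collagen IV chains of the mature glomerular basement membrane, differed by -0.54 (SE 0.32) and -0.23 (SE 0.24), opposite in sign to Lamb2 at 0.27. Their mean levels were 177 and 264 CPM in whole kidney. The share of this RNA from the glomerulus was not measured. Itga3, the podocyte laminin receptor chain, differed by 0.23 (SE 0.16) and its partner Itgb1 by 0.00 (SE 0.10).

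The neighbouring cells of the glomerulus were read in the same way. All 7 glomerular endothelial genes were above 0, with a median of 0.21, and 0 passed after adjustment; 3 of 7 were at an unadjusted p under 0.05 against 4.00% of all genes, and 2 of 7 had no overlap between groups against 1.97%. Flt1, a receptor of VEGF-A, differed by 0.28 (SE 0.09), Emcn, endomucin, by 0.23 (SE 0.12) and Plat, tissue plasminogen activator, by 0.50 (SE 0.18). These genes are also expressed by endothelium outside the glomerulus. For the mesangium, the contractile cells between capillary loops, 6 of 7 were above 0 and 0 passed, with Pdgfrb at 0.10 (SE 0.17), Agtr1a at -0.03 (SE 0.17), Serpine2 at 0.42 (SE 0.25) and Des at 0.27 (SE 0.16). For the parietal epithelium of the capsule 1 of 4 was above 0 and 0 passed, with Cldn1 at 0.20 (SE 0.13), Pax8 at -0.02 (SE 0.18) and the adhesion molecule Ncam1 at -0.11 (SE 0.29). For comparison, 1 of 6 proximal tubule genes and 6 of 7 genes of the thick limb and distal tubule list were above 0, and 0 passed. The latter list also holds the collecting duct genes Aqp2, Foxi1 and Atp6v0a4. At an unadjusted edgeR p under 0.05 were 1 of 6 and 2 of 7 of these, and 2 of 3 heat-shock genes.

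Correlation with Nphs1 was used to read how far each list shared its order of libraries. Among all 14432 other tested genes the median r with Nphs1 was 0.01, and 8.90% had r of at least 0.5. The share was 5 of 12 for cytoskeletal and surface genes (median r 0.46), 1 of 3 for transcription factors (0.21), 3 of 8 for secreted and other genes (0.39), and 0 of 7 for slit diaphragm companions (0.10). It was 1 of 11 for basement membrane genes (0.26), 2 of 7 for glomerular endothelium (0.22), 2 of 7 for mesangium (0.13) and 2 of 4 for parietal epithelium (0.46). For proximal tubule it was 1 of 6 (-0.09), and for the thick limb and distal tubule list 1 of 7 (0.23). In that last list the gene was Aqp2 of the collecting duct (r = 0.56, exact permutation p = 0.149, adjusted p = 0.692). For mesothelial markers the share was 3 of 3 (0.67), with a median above that of every podocyte list. It was 0 of 4 for red cell genes (0.32), 0 of 3 for heat-shock genes (0.28) and 0 of 3 for adrenal cortex genes (-0.05). The red cell and heat-shock medians were above those of several glomerular lists. No companion gene passed after adjustment over the 87 genes by r or rho. At an unadjusted exact permutation p under 0.05 by r were 5 of the 87, a share near that which the threshold alone would mark. Not every podocyte gene followed Nphs1: r was above 0 for 11 of 12 cytoskeletal and surface genes and 6 of 8 secreted and other genes. It was above 0 for 3 of 3 transcription factors and 4 of 7 slit diaphragm companions. The lowest r in these lists were -0.16, -0.32, 0.16 and -0.19, in the same order. Among podocyte genes the highest were Sema3g (r = 0.87, exact permutation p = 0.00546, adjusted p = 0.237; rho = 0.86, exact permutation p = 0.0107; r = 0.85 without wildtype 3 and wildtype 4) and Nes, the intermediate filament nestin of podocytes (r = 0.81, exact permutation p = 0.0162, adjusted p = 0.4697; rho = 0.86, exact permutation p = 0.0107; r = 0.77 without the same 2 libraries).

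Among markers of other cell types, Msln had the highest r with Nphs1. Msln, mesothelin, a marker of the mesothelium that also expresses Wt1, was at 2.35, 1.79, 1.19 and 2.67 CPM in knockout 1 to 4 and at 0.544, 0.689, 0.442 and 2.13 CPM in wildtype 1 to 4. Its r with Nphs1 was 0.93 (exact permutation p = 0.000719, adjusted p = 0.0626; rho = 0.93, exact permutation p = 0.00223; r = 0.97 without wildtype 3 and wildtype 4). Of 5 mesothelial markers 4 had counts and 1, Muc16, was not matched to a row. Upk3b and Krt19 had r = 0.67 and r = 0.60 with Nphs1 (exact permutation p = 0.0718 and p = 0.117), rho of 0.50 and 0.81, and r = 0.37 and r = 0.47 without wildtype 3 and wildtype 4. Lrrn4 was at most 0.191 CPM, below the limit of 0.223 CPM that a count of 0 allows. Between labels, 3 of 3 tested mesothelial genes were above 0, with a median log2 difference of 0.34, and 0 passed. Msln differed by 1.07 (SE 0.48, unadjusted p = 0.0492; edgeR adjusted p = 0.957), Krt19 by 0.34 (SE 0.44) and Upk3b by 0.17 (SE 0.25), beside 0.75 for Wt1. The summed level of the list was 10.5 to 19.6 CPM in knockout libraries and 6.45 to 21.1 CPM in wildtype libraries. The part of mesothelium in the values of Wt1 and Nphs1 was not tested.

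**Figure D5:**
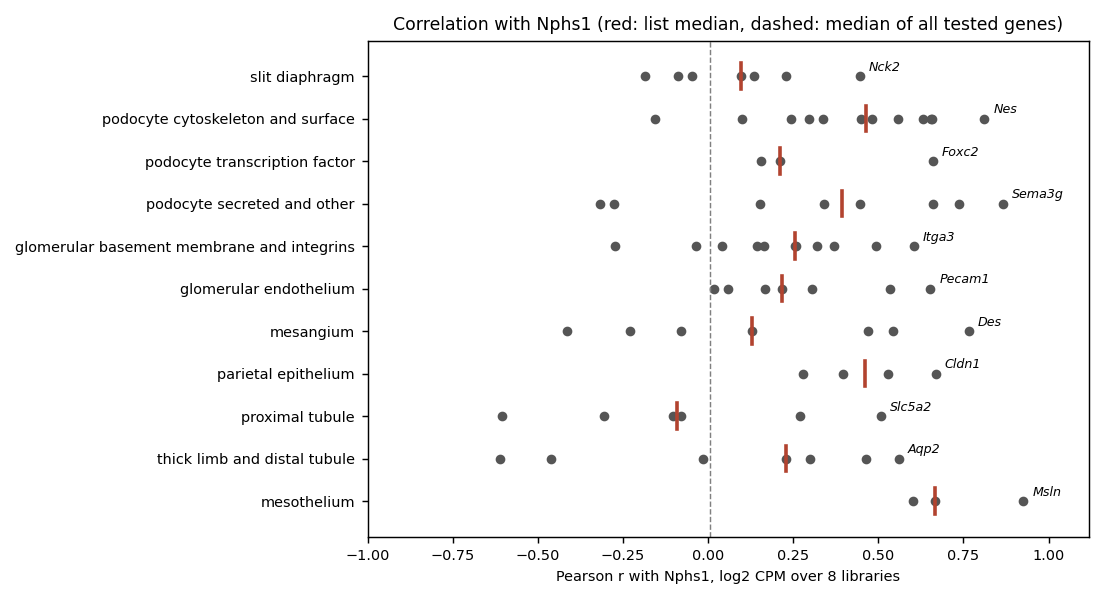
Pearson r with Nphs1 over 8 libraries for each tested gene (grey points) of 11 cell type and function lists (rows), with list medians in red and the median of all tested genes dashed. Msln at 0.93 and Sema3g at 0.87 lie farthest to the right. The red cell, heat-shock and adrenal cortex lists and the targeted genes are not shown.

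The genes most like each of the 8 in their order of libraries were found by r over 8 libraries, among tested genes with a symbol and a mean of at least 1 CPM. For Nphs1 they were Synpo (r = 0.97), Fbln2 (0.94) and Ehd2 (0.93), and for Synpo they were Nphs1 (0.97), Nfkbib (0.95) and Gpr153 (0.95). For Wt1 they were Myom2 (0.94), Nfkbib (0.93) and Msln (0.93). For Podxl they were Tirap (0.96), Atp5a1 (0.94) and Slc34a3 (0.94), for Ptpro Chek2 (0.98), Il7 (0.94) and Tmx2 (0.93), and for Magi2 Chp1 (0.97), Acta2 (0.97) and Zfp503 (0.96). Lamb2 was nearest to Tsc22d4 (0.98), Npr1 (0.98) and Adcy6 (0.98), and Cd2ap to Zfp719 (0.95), Prkci (0.94) and Slc22a26 (0.94). Each of the 8 genes thus had a best match between 0.94 and 0.98 among 14432 genes, and a podocyte gene was that best match for Nphs1 and Synpo alone. These values describe 8 libraries, were picked as the highest of many, and carry no test.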

How the data were processed

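The deposited values are whole-number read counts per Ensembl gene, 1 file per library, with no normalization by the authors. STAR, HTSeq, edgeR and genome build mm9 are named in the submitters' processing notes; versions are, like the annotation, not given in the sources used here. Counting ignored strand, per the names of the deposited files. Lines that name no gene stayed out of library sizes: reads outside genes made up 11.6% to 16.2%, ambiguous ones 2.05% to 2.31%, and multiply mapped ones 15.8% to 20.9%. Of 37583 identifiers, 32860 matched a GENCODE M21 symbol; positions come from the same annotation (GRCm38), by identifier, and none was converted from mm9.

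Libraries were grouped by title. Over 28 library pairs, chi-square divided by its genes was 10.7 to 86.2, far above sampling noise, so no library was treated as a copy. The test was edgeR 4.0.16 (R 4.3.3), quasi-likelihood, robust, TMM, filterByExpr (minimum count 10, minimum total 15), two-sided, Benjamini-Hochberg over all tested genes at 0.05. CPM, counts per 1000000 reads, uses TMM-scaled sizes; log2 CPM has a prior count of 2. Intervals are 95%. A count of 0 allows up to 0.223 CPM in the smallest library (a floor of 3 counts, counting error only). Pair correlations used all 40320 arrangements. The exact test of 4 against 4 cannot give a two-sided p below 0.0286. The script was tested on simulated data. DESeq2 1.42.0 and limma 3.58.1 (voom) were alternatives, with other normalizations, no filter, a replicate block and libraries left out. Figures used matplotlib 3.10.9.

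The genes and lists were chosen with earlier results of these data known. Named companions are, per list, the 2 most abundant and the 2 with the lowest p; from the nearest-gene rule, 3 per gene. Nes was named after its values were seen. A few listed genes are not reported here.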

Additional observations from a re-analysis of the deposited data

Results flagged for a closer look

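Within 114 groups of 4 libraries that were examined for 1 library far from the other 3, 13 were so marked, 2 of them among the 16 groups of the podocyte genes; chance marks about 1 group in 20. Magi2 was far above the other libraries of its label in knockout 4 (11.8 CPM) and in wildtype 4 (8.46 CPM), and Msln in wildtype 4 (2.13 CPM). The adrenal genes stood apart in knockout 2, with Star at 350 CPM and Hsd3b1 at 225 CPM, and in wildtype 1, with Star at 335 CPM and Hsd3b1 at 245 CPM. Red cell genes stood apart in knockout 1, with Hbb-bs at 4772 CPM and Hbb-bt at 1561 CPM, and in wildtype 1, with Hbb-bs at 818 CPM, Hbb-bt at 203 CPM and Hba-a1 at 252 CPM. The chaperone gene Dnajb1 stood apart in wildtype 1 at 58.1 CPM.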

How the results depend on the processing

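Over 16 alternatives, 126 of 128 recomputed differences of the 8 genes kept their direction, and 0 passed at an adjusted p under 0.05. The exceptions in direction were Ptpro without wildtype replicate 1 (-0.036, in a range of -0.036 to 0.436 over the left-out libraries) and Lamb2 without both heat-shock libraries (-0.084). The count of genes called over all genes, 0 by edgeR with 578 at an unadjusted p under 0.05, was 4 by DESeq2 (Ndufs5, Lpl, Col19a1 and ENSMUSG00000054588, named after their values were seen; 715 at an unadjusted p under 0.05), 1 without both heat-shock libraries (Ndufs5), and 0 to 2 when each library was left out in turn: C4a when knockout 3 was absent, Ndufs5 when knockout 4 was absent, and BC023105 with Gm4841 when wildtype 1 was absent. The cause was not tested. The median correlation over 28 pairs, 0.51, was 0.58 without both heat-shock libraries and 0.41 to 0.60 when each library was left out, lowest without wildtype replicate 1 and highest without knockout replicate 3. The labels do not say whether replicate numbers pair the libraries, and the values do not settle it. Same-numbered deviations had r of 0.23, -0.23, 0.28 and 0.29, and for 2 of the 4 numbers the best match was the library of that number. With the replicate block, 0 genes were called, Wt1 differed by 0.84, and the median correlation was 0.23. In that edgeR fit 1075 genes were at an unadjusted p under 0.05, and the smallest adjusted p was 0.145, against 0.957 without the block. Wt1, at 13 to 47 reads per library, was limited most by depth.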
